A study of Rattus norvegicus with 54 samples.

Results

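The left gubernacula of 4 male LE/orl rat fetuses were compared with those of 4 male LE/wt fetuses, all taken at gestational day 19 (GD19). These are 8 of the 54 arrays of the series, chosen by the strain, day, organ and side in their labels. LE/orl is a strain with inherited cryptorchidism, in which the testis does not reach the scrotum, and LE/wt is the wildtype strain. Each array held 1 gubernaculum of 1 fetus, so replicates A to D of a strain were separate fetuses. The labels name no drug, transgene or deleted gene in either strain, and they do not give the litter or the testis position of single fetuses. Of the other arrays, those of GD18 and GD20 gubernaculum, of LE/wt female gubernaculum and of GD19 testis were used where a GD19 result is set beside them. Values are log2 expression values on a one-colour Affymetrix array, so a difference of 1 is a change of 2-fold.

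The gubernaculum is a cord of mesenchyme and developing muscle that joins the fetal testis to the inguinal region. In males it swells and later turns inside out, and its outer layer forms the cremaster, a striated muscle. The Leydig cell hormone Insl3 and androgens are known to drive these steps, and signals of the Wnt, Bmp and Notch families and calcitonin gene-related peptide have been studied in them. Its tissue is known to hold striated muscle fibres, fibroblast-like mesenchyme, vessels and nerve. Markers of striated muscle and of fibroblast-like mesenchyme were bright on all 8 arrays: Acta1 (skeletal actin) lay between 13.21 and 14.47, embryonic myosin Myh3 between 13.27 and 14.10, and the collagen gene Col1a2 between 13.64 and 14.65.

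The arrays differed in 2 ways that bear on every result below. First, control probe sets for actin and GAPDH read both ends of a transcript, and the mean log2 difference of 5′ minus 3′ signal served as an index of it. The index was between −3.92 and −3.59 in LE/wt, between −7.23 and −6.40 in LE/orl replicates A to C, and −4.32 in LE/orl replicate D. Replicate D is the array the authors left out of their own GD19 mean: their deposited means matched the log2 values for 3589 of 3589 probe sets without it and for 50 with it. Second, the LE/wt male arrays of GD18 and GD19 stood apart from the LE/wt arrays of GD20 and of GD18 females on a component that held 21.1% of the variance, and replicate D lay with the GD20 and female arrays. On the first component, with 43.8%, replicate D (16.45) and LE/orl GD18 replicate A (23.76) lay on the LE/wt side, where LE/wt ran from 23.44 to 50.83 and the other LE/orl arrays from −72.40 to −38.28. Of the genes set beside testis below, replicate D lay with LE/orl for Zp2, Nit1, Rnf34, Ephx2 and Nqo2. It lay nearer to LE/wt than replicates A to C for Slc3a1, Rbfox3, Epha4 and Tk1. Other genes called alike in both organs also went both ways. Replicate D was the LE/orl array nearest to LE/wt for Egfr and Atf4, and the furthest for Fabp3. These genes are examples and not a count over all such genes. They were chosen by calls that include replicate D, so where it lies is partly set by that choice. Whether either of the 2 array differences accounts for part of the strain difference cannot be told apart from the strain in these groups. The overall counts are therefore also given without replicate D, in replicate D alone and with the index as a covariate. In a bulk sample, fewer cells of a type and less RNA per cell cannot be told apart.

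**Figure D1:**
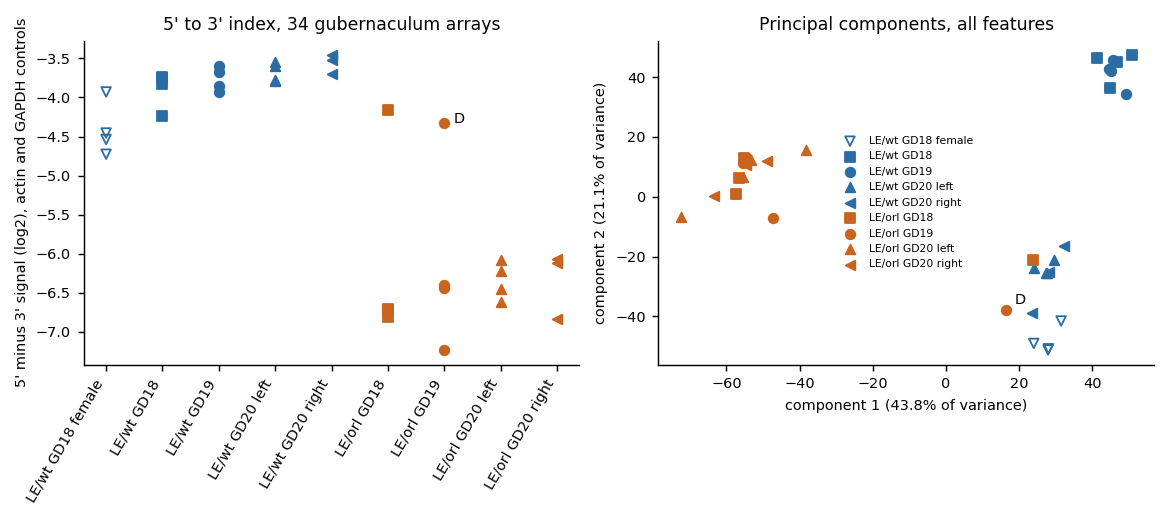
The left panel plots the 5′ minus 3′ control signal (log2) of each of the 34 gubernaculum arrays by group, and the right panel plots the same arrays on the first 2 principal components of 8711 features. LE/orl GD19 replicates A to C lie at −6.40 or below in the index, and replicate D lies at −4.32; on the second component LE/wt males of GD18 and GD19 lie apart from the other LE/wt arrays.

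At GD19 the strains differed in 4534 of 8711 features tested, or 52.0%, with 2282 higher in LE/orl (26.2%) and 2252 lower (25.9%; limma, adjusted p under 0.05). Without replicate D the test called 4699 features (53.9%). Replicate D alone, as 1 array assumed to vary like the other groups, differed from LE/wt in 2794 (32.1%), and it differed from replicates A to C in 1552 (17.8%). The index as a covariate left 2783 features (31.9%) called. The 4 and 4 arrays did not overlap for 3251 features (37.3%). Among the 2821 features with a gene name, 2146 (76.1%) were called, 921 higher (32.6%) and 1225 lower (43.4%), with a median difference of −0.26. The names come from the authors' own lists, selected with these arrays. The direction of a gene group below is therefore not independent evidence, and its counts are read against these shares. Of 124 called genes described below, 36 were not called in replicate D alone, 30 were not called with the index as a covariate, and 86 were called in both. Replicate D alone and the index covariate are not independent checks. The index was −4.32 in replicate D and −4.16 in LE/orl GD18 replicate A, and −6.06 or lower in the other LE/orl gubernaculum arrays. The covariate fit therefore leans on replicate D and that GD18 array. For genes given array by array, the groups of 4 did not overlap unless this is stated.

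Among genes with both strain means of at least 5, a level above background, and without overlap, those with the largest rise in LE/orl included Eef2k, Kctd3 and Ptprf. Eef2k, the kinase that slows translation by acting on elongation factor 2, read 5.40, 6.84, 5.12 and 6.43 in LE/wt replicates A to D and 9.67, 9.90, 9.69 and 8.81 in LE/orl replicates A to D. Here replicate D was the lowest LE/orl array but above every LE/wt array, and the difference was 3.57 ± 0.54 (SE; adjusted p = 4.3e-06), or 11.9-fold. Ptprf, a receptor phosphatase of cell contacts, was at 8.41, 9.55, 8.26 and 8.96 in LE/wt and 12.02, 11.95, 11.64 and 11.00 in LE/orl, with a difference of 2.86 ± 0.35 (SE; adjusted p = 1.8e-07). Others were Kctd3 at 3.36, Nus1 (part of a dolichol-making enzyme) at 3.34 and Dnm1 (dynamin, a GTPase of endocytosis) at 3.21. They were followed by Map3k7 (a kinase in Tgf-beta and inflammatory signalling) at 3.06, Rfk (riboflavin kinase) at 2.86, Rnf111 (a ubiquitin ligase of Tgf-beta signalling) at 2.78 and Glcci1 at 2.72. Replicate D alone was also called higher for each of these genes, by 2.21 (Ptprf) to 3.90 (Dnm1).

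The 10 genes with the largest fall under the same conditions were led by Lage3 and Polr2f. Lage3, part of the complex that modifies transfer RNA, was at 10.50, 10.54, 10.03 and 10.18 in LE/wt and at 5.53, 5.04, 5.40 and 8.06 in LE/orl. Replicate D lay between the other LE/orl arrays and LE/wt, and the difference was −4.31 ± 0.48 (SE; adjusted p = 4.3e-08) with it and −4.99 without it. Polr2f, a subunit shared by the nuclear RNA polymerases, read 9.80, 9.62, 9.61 and 9.53 in LE/wt and 5.12, 4.48, 5.03 and 6.71 in LE/orl, a difference of −4.30 ± 0.40 (SE; adjusted p = 2e-09). Lgals1, the carbohydrate-binding galectin-1, was among the brightest genes of LE/wt at 13.78, 13.54, 13.73 and 13.29 and fell to 8.30, 9.27, 9.10 and 11.91, a difference of −3.94 ± 0.54 (SE; adjusted p = 1.2e-06). Replicate D was again the LE/orl array closest to LE/wt, and on its own it was not called (difference −1.67, adjusted p = 0.057). The ribosomal protein genes Rps15 (−4.13) and Rps10 (−3.85) belonged to this group. So did Eif3k of a translation initiation factor (−3.81), Timm13 of mitochondrial protein import (−3.80), and the cytokine gene Mif (−3.78). Mgst3, a membrane-bound glutathione transferase, had −3.76 and Homer1, a scaffold of synapses and muscle, −3.75. A second Homer1 probe set had 0.48 and was not called (limma, adjusted p = 0.21), so the fall of Homer1 rests on its brightest probe set. In replicate D alone Timm13 (−1.02, adjusted p = 0.34), Mgst3 (−2.04, 0.12) and Homer1 (−1.47, 0.13) also missed the threshold. The same 3 were no longer called with the index as a covariate: Timm13 had −1.23 (adjusted p = 0.13), Mgst3 −1.72 (adjusted p = 0.097) and Homer1 −1.25 (adjusted p = 0.052).

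**Figure D2:**
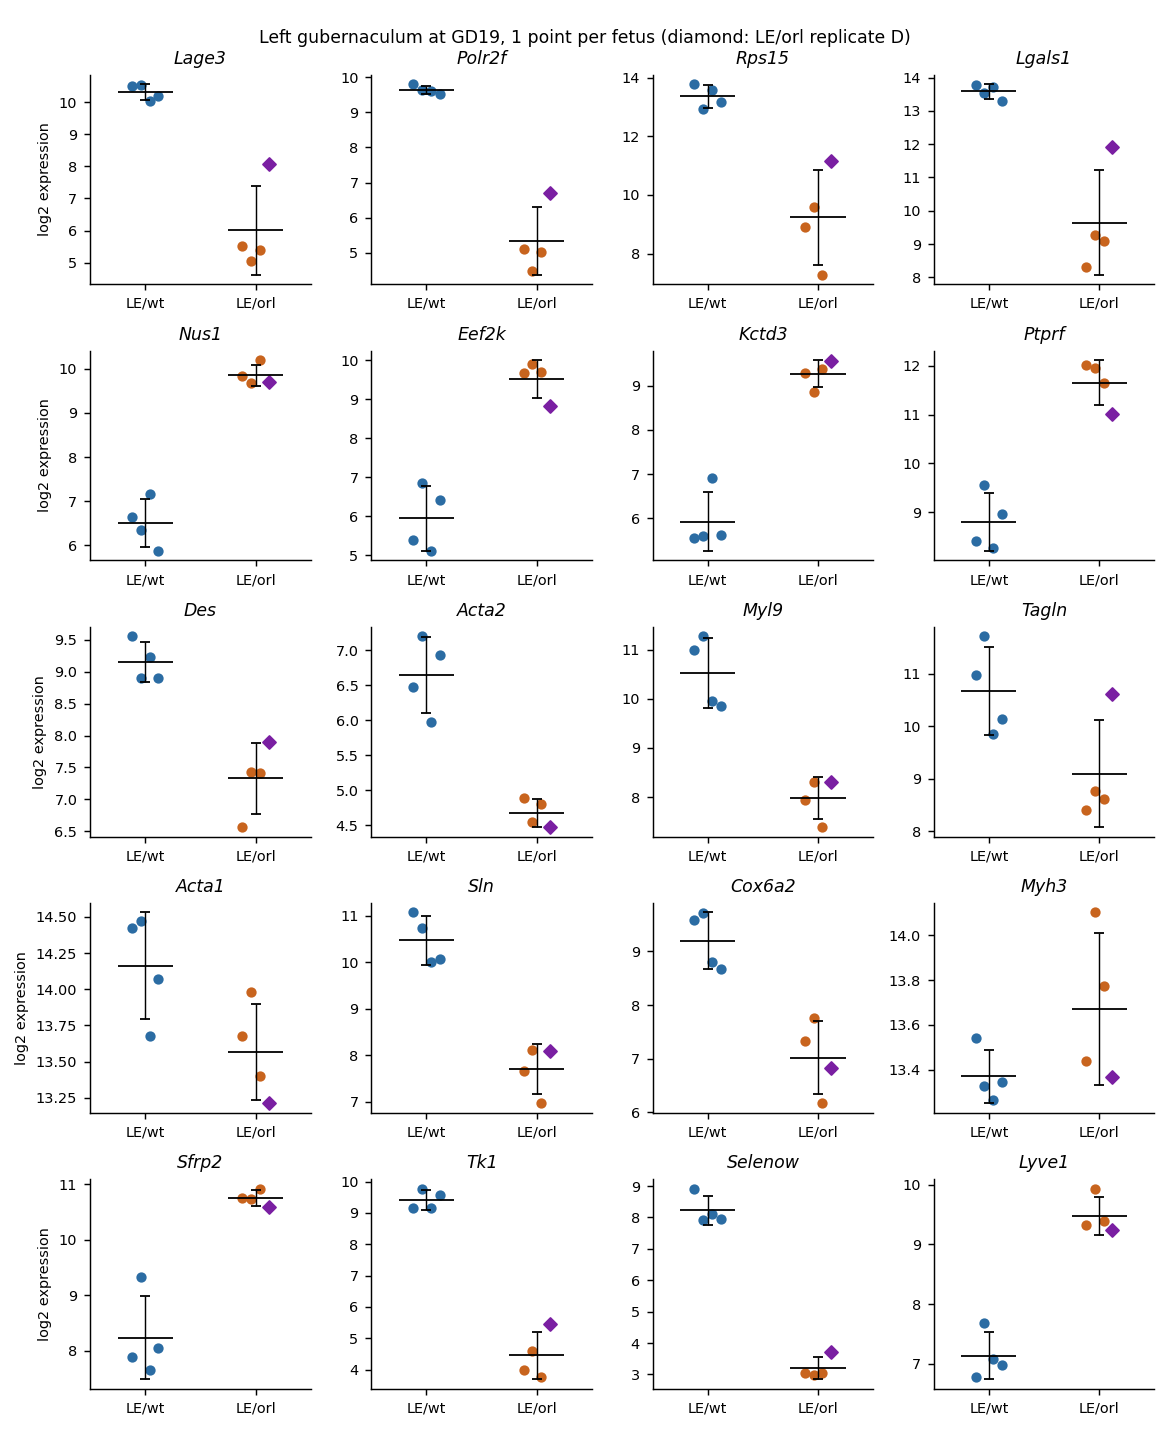
Each panel plots the log2 expression of 1 gene in the 8 left gubernacula of GD19, with 1 point per fetus, a line at the mean and bars of 1 SD (n = 4 per strain). The diamond is LE/orl replicate D, which lies between the other LE/orl arrays and LE/wt for Lage3, Polr2f, Rps15 and Lgals1 and within the LE/wt range for Tagln. For Sln, Cox6a2, Acta2, Nus1 and Lyve1 it lies with the other LE/orl arrays or beyond them, clear of LE/wt.

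Genes of the striated muscle fibre were lower in LE/orl in part, and none was called higher among filament and Z-disc genes. Of 12 thin filament genes tested 7 were lower (58.3%), of 6 thick filament genes 2 (33.3%), and of 11 Z-disc and M-band genes 7 (63.6%), beside 43.4% of all named genes. The medians of the 3 lists were −0.71, −0.27 and −1.16. In replicate D alone 2, 2 and 3 of these genes were lower, and with the index as a covariate 2, 2 and 4 were lower and 1 thin filament gene higher, beside 22.4% and 23.9% of named genes lower. The bright myosin genes Myh3 and Myl1 were not called. Myh3, embryonic myosin heavy chain, was at 13.54, 13.33, 13.27 and 13.35 in LE/wt and 13.44, 14.10, 13.77 and 13.37 in LE/orl, and its groups overlapped (difference 0.30, adjusted p = 0.31). Myl1, a fast myosin light chain, had a difference of 0.25 (adjusted p = 0.24).

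Cardiac actin Actc1, which fetal skeletal muscle also makes, was at 14.05, 14.09, 13.69 and 13.82 in LE/wt and 13.01, 13.44, 12.64 and 13.24 in LE/orl. Its arrays did not overlap, and the difference of −0.83 ± 0.22 (SE; adjusted p = 0.0025) was the same in direction in replicate D alone (−0.68, adjusted p = 0.14). Skeletal actin Acta1 read 14.43, 14.47, 13.68 and 14.07 in LE/wt and 13.68, 13.98, 13.40 and 13.21 in LE/orl, with overlapping groups. Its difference of −0.59 ± 0.25 (SE; adjusted p = 0.048) was no longer called without replicate D (−0.48, adjusted p = 0.14), nor without LE/wt replicate A, B or D or LE/orl replicate A or C, with values between −0.63 and −0.49. The fast troponin genes Tnni2 (−1.28, adjusted p = 0.0037) and Tnnt3 (−0.98, adjusted p = 0.026) were lower, and the groups of Tnnt3 overlapped because replicate D, at 10.48, lay within LE/wt. Tnnt3 lost its call without LE/wt replicate A or D or without LE/orl replicate A or B, with values between −0.96 and −0.69. None of Actc1, Acta1, Tnni2 and Tnnt3 was called with the index as a covariate. Tmod1, which caps the thin filament, was −1.10 and lowest in replicate D.

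Other filament and Z-disc genes differed more. Myl3, a light chain of slow and cardiac myosin, was at 10.39, 10.48, 9.08 and 9.64 in LE/wt and 7.21, 8.55, 7.11 and 7.39 in LE/orl, without overlap and with replicate D among the other LE/orl arrays. The difference was −2.33 ± 0.39 (SE; adjusted p = 1.9e-05), or 5.03-fold. Mybph, a myosin-binding protein, differed by −1.35. In the Z-disc, Des (desmin, the intermediate filament of muscle) read 9.56, 8.90, 9.23 and 8.91 in LE/wt and 6.57, 7.44, 7.41 and 7.90 in LE/orl, a difference of −1.82 ± 0.35 (SE; adjusted p = 8.6e-05), and of −1.25 in replicate D alone (adjusted p = 0.076). Myoz2, which tethers calcineurin at the Z-disc, was at 11.23, 11.33, 10.65 and 10.62 in LE/wt and 9.79, 9.91, 9.57 and 8.84 in LE/orl, with replicate D the lowest and a difference of −1.43 ± 0.32 (SE; adjusted p = 0.00044). Fhl3, a muscle LIM protein, differed by −1.36, but by −0.60 in replicate D alone (adjusted p = 0.37), and with the index as a covariate it was not called (−0.59, adjusted p = 0.29).

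Sln (sarcolipin, an inhibitor of the calcium pump of the sarcoplasmic reticulum) was at 11.07, 10.74, 10.00 and 10.07 in LE/wt and at 7.66, 8.11, 6.97 and 8.09 in LE/orl. All LE/orl arrays lay at least 1 log2 unit below the lowest LE/wt array, replicate D with them, and the difference was −2.76 ± 0.39 (SE; adjusted p = 1.4e-06), or 6.79-fold. S100a1, a calcium-binding protein of muscle, read 8.70, 8.33, 8.25 and 8.61 in LE/wt and 6.58, 5.88, 6.17 and 7.14 in LE/orl, a difference of −2.03 ± 0.18 (SE; adjusted p = 1.1e-09). The pump gene Atp2a2 went the other way, from 10.62, 10.84, 10.62 and 10.40 to 11.70, 12.23, 11.53 and 11.17, a difference of 1.04 ± 0.25 (SE; adjusted p = 0.00089). It was not called in replicate D alone (0.54, adjusted p = 0.28) or with the index as a covariate (0.44, adjusted p = 0.3). Of 8 genes in this list 1 was higher (12.5%) and 3 were lower (37.5%), beside 32.6% and 43.4% of named genes.

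Of 10 muscle energy enzymes 8 were lower (80%), with a median of −1.37 over all LE/orl arrays and −0.49 in replicate D. In replicate D alone 3 were lower, and with the index as a covariate 3, shares near those of named genes (22.4% and 23.9%). Cox6a2, the muscle form of a cytochrome c oxidase subunit, was at 9.58, 9.72, 8.81 and 8.68 in LE/wt and 7.32, 7.76, 6.17 and 6.83 in LE/orl. Replicate D lay inside the range of the other LE/orl arrays, and the difference was −2.18 ± 0.35 (SE; adjusted p = 8.7e-06). Eno3, the muscle enolase, read 11.95, 12.09, 11.18 and 11.55 in LE/wt and 9.83, 10.54, 9.45 and 10.23 in LE/orl, a difference of −1.68 ± 0.30 (SE; adjusted p = 3.5e-05). Fabp3, the fatty acid carrier of heart and muscle, was 3.81-fold lower (−1.93), with a LE/orl mean below 5, where signal is close to background.

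Myogenic regulators went both ways: of 8 tested, 3 were higher and 3 lower (37.5% each), beside 32.6% and 43.4% of named genes. Mustn1, a small nuclear protein of growing muscle and bone, was at 9.80, 10.30, 9.25 and 9.89 in LE/wt and 8.79, 8.79, 9.02 and 8.35 in LE/orl, a difference of −1.07 ± 0.22 (SE; adjusted p = 0.00023). Igfbp5, which binds insulin-like growth factors and rises in differentiating myoblasts, fell from 10.61, 9.86, 8.94 and 9.71 to 6.22, 6.56, 7.72 and 7.24, a difference of −2.84 ± 0.42 (SE; adjusted p = 2.7e-06) or 7.17-fold. All 4 LE/orl arrays lay more than 1 log2 unit below the lowest LE/wt array.

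The start-site regions of 3 called muscle filament genes are shown because many muscle genes are known targets of serum response factor, which binds the CArG box, and Acta1 and Actc1 are standard examples. The stretches run from 250 bases before to 50 after the start site in RefSeq on GRCr8, and the capitals mark the CArG box, which reads the same class of letters on both strands. It was found in 2 of 10 thin filament promoters matched, 1 of 5 thick filament, 2 of 9 Z-disc (Fhl1 and Ldb3, neither of them called) and 0 of 3 smooth muscle promoters, and in 1.64% of all 33469 promoters of this length. In Acta1 and Myl3 it lies before the start site, and in Actc1 just after it. A match describes these letters only, and no match says only that they are not in this window.
Acta1, chr19:68784145-68784444, minus strand: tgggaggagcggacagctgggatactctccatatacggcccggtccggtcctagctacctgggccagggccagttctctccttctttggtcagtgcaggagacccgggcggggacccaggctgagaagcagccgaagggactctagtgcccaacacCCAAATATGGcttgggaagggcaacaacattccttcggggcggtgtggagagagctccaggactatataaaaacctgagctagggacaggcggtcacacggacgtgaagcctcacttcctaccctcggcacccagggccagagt
Actc1, chr3:121271778-121272077, minus strand: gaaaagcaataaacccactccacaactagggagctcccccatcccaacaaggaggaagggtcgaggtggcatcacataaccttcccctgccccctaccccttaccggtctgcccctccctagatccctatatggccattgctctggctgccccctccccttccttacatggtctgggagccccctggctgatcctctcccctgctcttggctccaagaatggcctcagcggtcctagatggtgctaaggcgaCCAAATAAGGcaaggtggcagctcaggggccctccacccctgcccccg
Myl3, chr8:119616844-119617143, plus strand: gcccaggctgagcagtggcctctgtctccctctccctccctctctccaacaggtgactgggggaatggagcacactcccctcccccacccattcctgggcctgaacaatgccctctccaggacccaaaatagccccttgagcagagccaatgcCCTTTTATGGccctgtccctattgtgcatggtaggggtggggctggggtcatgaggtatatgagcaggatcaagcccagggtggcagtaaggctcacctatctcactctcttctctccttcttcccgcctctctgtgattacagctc

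Smooth muscle genes were lower as a group: all 5 tested were called lower, with a median of −1.82 beside −0.26 for all named genes and −1.62 in replicate D alone. With the index as a covariate 4 were lower, beside 23.9% of named genes. Des, given above, is among the 5 and is also counted in the Z-disc list. Myl9, the regulatory light chain of smooth muscle myosin, was at 10.99, 11.27, 9.96 and 9.86 in LE/wt and 7.94, 8.31, 7.39 and 8.30 in LE/orl. The arrays did not overlap, and the difference was −2.53 ± 0.28 (SE; adjusted p = 4.3e-08), or 5.79-fold. Acta2, smooth muscle actin, was dim at 6.47, 7.20, 5.97 and 6.93 in LE/wt and 4.88, 4.54, 4.81 and 4.47 in LE/orl, with a LE/orl mean below 5 and a difference of −1.97 ± 0.24 (SE; adjusted p = 2.3e-07). Tagln, an actin-binding protein of smooth muscle, was at 10.97, 11.72, 9.86 and 10.14 in LE/wt and 8.39, 8.77, 8.62 and 10.61 in LE/orl. Its replicate D lay within LE/wt, so the difference was −1.57 ± 0.49 (SE; adjusted p = 0.0089) with it and −2.08 without it. In replicate D alone it was −0.06 (adjusted p = 0.96), and with the index as a covariate 0.37 (adjusted p = 0.59), with the opposite sign.

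**Figure D3:**
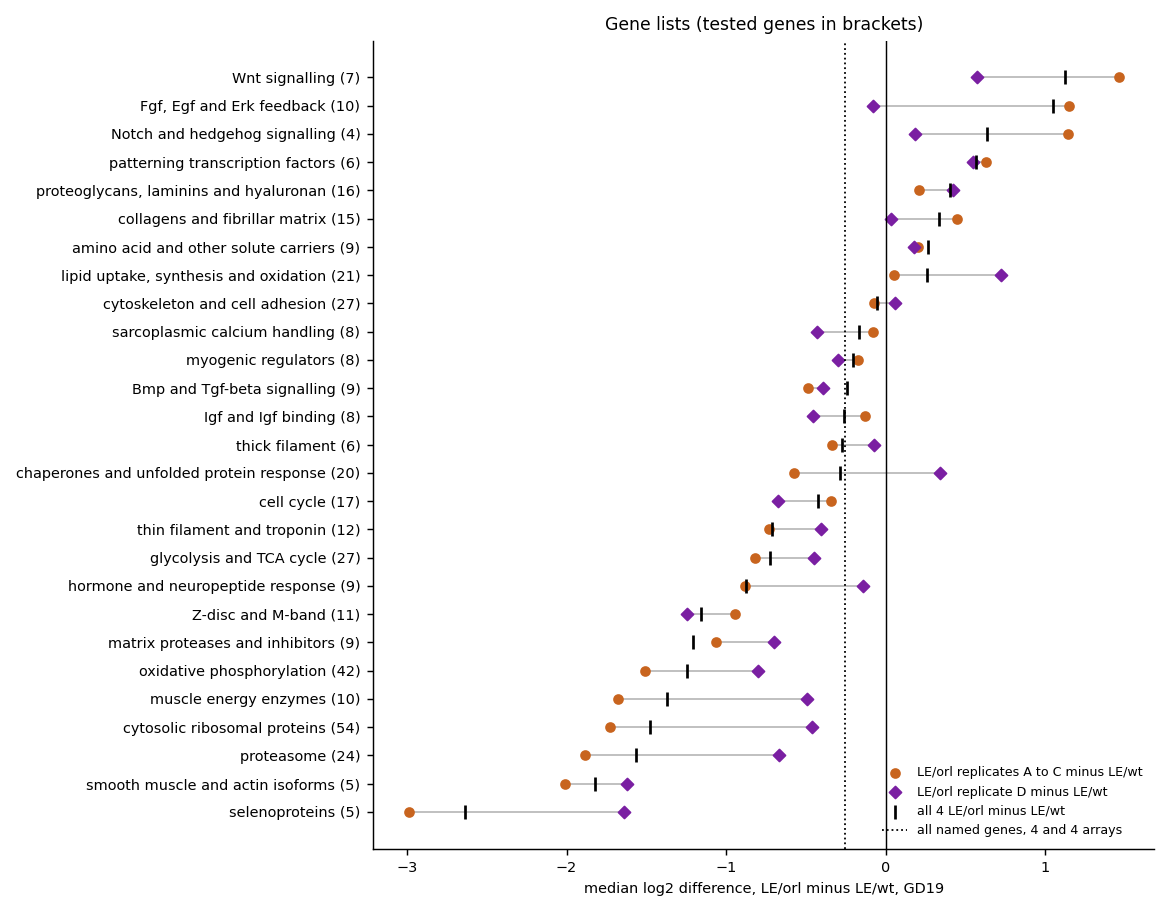
Median log2 difference (LE/orl minus LE/wt, GD19) of each gene list with at least 4 tested genes, for LE/orl replicates A to C (circles), replicate D (diamonds) and all 4 arrays (ticks). The dotted line is the median of all named genes, −0.26, and the medians of replicate D lie nearer to 0 than those of A to C for ribosomal protein, proteasome and oxidative phosphorylation genes.

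Genes of the respiratory chain and ATP synthase were mostly lower in LE/orl: 33 of 42 tested (78.6%), against 43.4% of named genes, with a median of −1.24. Replicate D alone had 19 of 42 lower and a median of −0.80, beside 22.4% of all named genes lower in that array. With the index as a covariate 21 were lower, beside 23.9%. Ndufs7, a core subunit of complex I, was at 11.24, 11.28, 11.29 and 11.33 in LE/wt and at 8.33, 8.47, 8.21 and 8.93 in LE/orl. The LE/wt arrays lay within 0.1 of each other, and the difference was −2.80 ± 0.22 (SE; adjusted p = 1.6e-10), or 6.96-fold. Atp5po, in the stalk of ATP synthase, was at 12.98, 12.52, 13.23 and 12.68 in LE/wt and 10.73, 11.01, 10.62 and 10.86 in LE/orl, with replicate D among the other LE/orl arrays and a difference of −2.05 ± 0.18 (SE; adjusted p = 1.4e-09). Atp5f1d, another subunit of the same enzyme, differed by −2.92 with all arrays and by −1.93 in replicate D alone (adjusted p = 0.00037). Members called higher included Atp5f1b and Cox5a. Of 27 genes of glycolysis and the tricarboxylic acid cycle 15 were lower (55.6%) and 1 higher. Aldoa, Eno3, Pfkm and Pgam2 are among those lower here and among the lower muscle energy enzymes. Idh3g (a subunit of isocitrate dehydrogenase) was at 11.71, 11.61, 11.21 and 11.49 in LE/wt and 8.93, 9.35, 8.81 and 10.14 in LE/orl, a difference of −2.20 ± 0.25 (SE; adjusted p = 6.5e-08). Mdh2 (mitochondrial malate dehydrogenase, −1.59) and Eno1 (the enolase of most tissues, −1.82) were lower without overlap too.

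Ribosomal protein genes were lower almost throughout, 50 of 54 tested (92.6%), with 1 higher, Rpl30, and a median of −1.48. In replicate D the median was −0.46 and 19 were lower, and with the index as a covariate 17 were lower, beside 22.4% and 23.9% of named genes. Rpl29 was at 13.10, 12.61, 12.81 and 12.72 in LE/wt and 10.25, 10.72, 9.42 and 10.31 in LE/orl, with replicate D among the other LE/orl arrays and a difference of −2.63 ± 0.27 (SE; adjusted p = 1.3e-08). Rpl35a (−1.90) was lower without overlap as well. Ribosomal protein genes have many near-identical copies in the genome, which the probes may also read. Proteasome genes followed, with 21 of 24 lower (87.5%), a median of −1.57 and −0.67 in replicate D. There 7 were lower, and with the index as a covariate 10. Psmb3, a subunit of the catalytic core, was at 10.76, 11.69, 10.68 and 11.25 in LE/wt and 7.85, 8.71, 7.43 and 8.59 in LE/orl, a difference of −2.95 ± 0.29 (SE; adjusted p = 6.2e-09). Psmb6 of the same core (−2.27) and Psmc4 of the regulatory particle (−1.78) were also lower, without overlap.

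All 5 selenoprotein genes tested were lower, with the most negative median among lists with 4 or more tested genes, −2.63. In replicate D alone 2 were lower, and with the index as a covariate 3. Of all named genes 43.4% were lower with all arrays and 23.9% with that covariate. The selenoprotein median in replicate D was −1.64, beside −0.12 for all named genes. Selenoproteins carry selenocysteine and are known for redox functions. Selenow, which is high in muscle, was at 8.92, 7.93, 8.10 and 7.95 in LE/wt and 3.04, 2.99, 3.04 and 3.73 in LE/orl. All LE/orl arrays were near background and the fitted difference was −5.03 ± 0.53 (SE; adjusted p = 1.9e-08); LE/wt females of GD18 were also low, at 3.80 ± 0.95 (SD, n = 4). Selenom, of the endoplasmic reticulum, read 10.08, 10.19, 9.07 and 9.91 in LE/wt and 3.22, 3.29, 5.26 and 7.61 in LE/orl, a difference of −4.97 ± 0.69 (SE; adjusted p = 1.4e-06). Replicate D was well above the other LE/orl arrays, and in it alone the difference was −2.20 (adjusted p = 0.056). Selenoh, a nuclear member, differed by −1.43, without overlap and with replicate D among the others.

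Among signalling genes, those of the Wnt pathway, its inhibitors included, were higher in LE/orl: 5 of 7 tested were higher (71.4%) and 0 lower, beside 32.6% of named genes higher. The median was 1.12, and 0.57 in replicate D, where 3 were higher and 1 lower. The index covariate gave the same counts, 3 and 1, beside 20.5% and 23.1% of named genes higher. Sfrp2, a secreted Wnt inhibitor, was at 7.89, 9.33, 7.66 and 8.05 in LE/wt and 10.76, 10.73, 10.92 and 10.59 in LE/orl. The LE/orl arrays lay within 0.4 of each other, all above LE/wt, and the difference was 2.52 ± 0.24 (SE; adjusted p = 3.7e-09), or 5.74-fold. Frzb, a related inhibitor, was at 7.29, 8.80, 7.39 and 7.79 in LE/wt and 9.82, 10.23, 10.11 and 9.30 in LE/orl, a difference of 2.05 ± 0.34 (SE; adjusted p = 1.5e-05). A second Frzb probe set had 0.65 and was not called (limma, adjusted p = 0.072). Gsk3b, the kinase that marks beta-catenin for breakdown, differed by 1.12 and was highest in replicate D. LE/wt females of GD18 had Sfrp2 at 11.19, close to the LE/orl level, and Frzb at 6.70, below both male groups.

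Of 9 Bmp and Tgf-beta genes 1 was higher (11.1%) and 4 lower (44.4%), beside 32.6% and 43.4% of named genes. Bmp7, a growth factor of urogenital and muscle development, was at 7.93, 7.80, 7.88 and 8.40 in LE/wt and 6.42, 6.89, 6.64 and 7.00 in LE/orl, a difference of −1.27 ± 0.18 (SE; adjusted p = 2.3e-06). Id3, a target of Bmp signals that blocks differentiation factors, read 9.76, 9.90, 9.54 and 9.80 in LE/wt and 4.13, 2.65, 4.28 and 8.00 in LE/orl. Replicates A to C were below 5, near background, while replicate D lay between them and LE/wt. The difference was −4.98 ± 0.75 (SE; adjusted p = 4.2e-06) with all arrays and −1.75 in replicate D alone (adjusted p = 0.14). Fst, the Bmp and activin antagonist follistatin, was at 9.57, 9.67, 9.08 and 9.34 in LE/wt and 10.51, 11.01, 11.10 and 9.72 in LE/orl, a difference of 1.17 ± 0.27 (SE; adjusted p = 0.00082), with replicate D just above LE/wt (difference 0.30, adjusted p = 0.59). With the index as a covariate Fst had 0.10 (adjusted p = 0.81).

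Of 4 Notch and hedgehog genes 2 were higher (50%) and 0 lower, beside 32.6% and 43.4% of named genes. Notch2, a receptor of the Notch pathway, was higher in LE/orl at 11.90, 12.07, 12.52 and 12.11, against 10.28, 10.51, 9.69 and 10.29 in LE/wt, a difference of 1.96 ± 0.25 (SE; adjusted p = 3.4e-07). Gli2, a transcription factor of hedgehog signalling, differed by 0.68 (adjusted p = 0.015) with overlapping groups. It lost its call without LE/wt replicate C (0.53) or LE/orl replicate C (0.58) and turned to −0.12 (adjusted p = 0.76) with the index as a covariate. Notch1 was not called (0.48, adjusted p = 0.15). Of 10 genes of Fgf and Egf signalling and its feedback 6 were higher (60%) and 2 lower (20%). Their median was 1.05, and −0.08 in replicate D. Both in replicate D alone and under the index covariate 4 were higher and 2 lower. Spry1, a feedback inhibitor of receptor kinases, rose from 6.96, 7.10, 7.33 and 6.60 to 8.82, 8.53, 8.50 and 8.82, a difference of 1.67 ± 0.18 (SE; adjusted p = 2.1e-08). Dusp1, a phosphatase that switches off MAP kinases, was at 9.17, 8.48, 8.36 and 8.53 in LE/wt and 7.21, 7.62, 7.33 and 6.59 in LE/orl, with replicate D the lowest and a difference of −1.45 ± 0.18 (SE; adjusted p = 2e-07). Egfr, the receptor of epidermal growth factor, was dim: 6.65, 6.11, 5.36 and 5.61 in LE/wt and 3.00, 3.65, 3.41 and 3.82, near background, in LE/orl, a difference of −2.46 ± 0.26 (SE; adjusted p = 1.6e-08). Among insulin-like growth factor genes 1 of 8 was higher (12.5%) and 4 lower (50%). Beside Igfbp5, the binding proteins Igfbp2 (−0.92, adjusted p = 0.0061) and Igfbp6 (−1.04, adjusted p = 0.00079) were lower. Neither was called in replicate D alone (−0.25 and −0.70) or with the index as a covariate (−0.16, adjusted p = 0.75, and −0.65, adjusted p = 0.14), and the groups of Igfbp2 overlapped.

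Of 9 genes of hormone and neuropeptide response 2 were higher (22.2%) and 5 lower (55.6%), beside 32.6% and 43.4% of named genes. Ramp1, the subunit that makes the calcitonin receptor-like receptor answer to calcitonin gene-related peptide, was at 9.17, 9.15, 8.78 and 8.87 in LE/wt and 6.76, 7.63, 6.73 and 7.13 in LE/orl. The arrays did not overlap, replicate D was among the others, and the difference was −1.93 ± 0.33 (SE; adjusted p = 2.6e-05), or 3.81-fold. Cited1, a transcriptional coregulator, was at 8.45, 7.71, 8.20 and 8.21 in LE/wt and 4.61, 6.03, 6.18 and 6.92 in LE/orl, a difference of −2.21 ± 0.37 (SE; adjusted p = 1.8e-05), and of −1.22 in replicate D alone (adjusted p = 0.085). LE/wt females of GD18 had it at 4.12. Rxra, the retinoid X receptor, was higher at 8.29, 8.32, 8.71 and 7.83, against 6.97, 6.61, 6.75 and 6.51, a difference of 1.58 ± 0.24 (SE; adjusted p = 3.7e-06). Of 6 patterning transcription factors 3 were higher (50%) and 0 lower, with a median of 0.57. Hoxa5, a homeobox gene, was at 7.56, 8.61, 7.17 and 8.21 in LE/wt and 10.19, 9.76, 10.18 and 9.21 in LE/orl, a difference of 1.95 ± 0.44 (SE; adjusted p = 0.0005), and of 1.32 in replicate D alone (adjusted p = 0.14). Pbx3, a partner of Hox proteins, differed by 0.79, and by 0.20 in replicate D alone (adjusted p = 0.61). With the index as a covariate neither Hoxa5 nor Pbx3 was called (0.97, adjusted p = 0.19, and 0.20, adjusted p = 0.51). Wt1, a factor of urogenital mesenchyme and mesothelium, was 0.61 (adjusted p = 0.0048) with overlapping groups.

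Of 15 collagen and fibrillar matrix genes 6 were higher (40%), beside 32.6% of named genes, and 0 lower, with a median of 0.33. Without replicate D 7 were higher and 1 lower, in replicate D alone 4 and 1, and with the index as a covariate 3 and 1. Col1a2, a chain of type I collagen, was at 13.64, 13.82, 13.66 and 13.83 in LE/wt and 14.49, 14.65, 14.52 and 14.45 in LE/orl. All LE/orl arrays lay above LE/wt, and the difference was 0.79 ± 0.13 (SE; adjusted p = 1.4e-05), or 1.73-fold. Col5a1 (1.11) and Col14a1 (0.81) were higher without overlap too. A second Col5a1 probe set had 0.77 and was not called (limma, adjusted p = 0.056). Col1a1, the other chain of type I collagen, is added for comparison outside the naming rule: its brightest probe set was not called (0.04, adjusted p = 0.94) and another had −2.28 (adjusted p = 0.00012). Of 16 proteoglycan, laminin and hyaluronan genes 7 were higher (43.8%) and 4 lower (25%), beside 32.6% and 43.4% of named genes. Ogn (osteoglycin, a small proteoglycan) was at 11.32, 11.15, 10.56 and 10.91 in LE/wt and 8.65, 9.19, 8.69 and 7.19 in LE/orl, a difference of −2.56 ± 0.33 (SE; adjusted p = 4.5e-07), with replicate D the lowest. Its probe sets were called in opposite directions, so its direction is uncertain. Gpc3, a cell-surface proteoglycan that restrains growth, was at 10.65, 10.94, 9.82 and 10.65 in LE/wt and 11.65, 11.37, 11.47 and 11.53 in LE/orl, a difference of 0.99 ± 0.21 (SE; adjusted p = 0.00022). Sdc1, the cell-surface proteoglycan syndecan, was higher by 0.89, but was not called in replicate D alone (0.65, adjusted p = 0.074) or with the index as a covariate (0.48, adjusted p = 0.11). Of 9 matrix proteases and inhibitors 3 were higher (33.3%) and 5 lower (55.6%). The metalloproteinase inhibitor Timp2 was at 12.46, 12.25, 11.75 and 12.03 in LE/wt and 10.01, 9.94, 10.16 and 10.87 in LE/orl, a difference of −1.88 ± 0.23 (SE; adjusted p = 1.9e-07). Timp1, a related inhibitor, was −1.21 and Cst3 (cystatin C, an inhibitor of cysteine proteases) −1.80. Cst3 was not called in replicate D alone (−0.70, adjusted p = 0.2) or with the index as a covariate (−0.75, adjusted p = 0.093).

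Cell cycle genes were lower in part, 9 of 17 (52.9%) with 3 higher, beside 43.4% of named genes lower and 32.6% higher. Their median was −0.42, beside −0.26 for all named genes. In replicate D the medians were −0.67 and −0.12. With the index as a covariate 6 were lower and 1 higher, beside 23.9% and 23.1% of named genes. Tk1 (thymidine kinase, used in DNA synthesis) was at 9.16, 9.78, 9.15 and 9.58 in LE/wt and 3.98, 4.61, 3.76 and 5.45 in LE/orl. The gap between the strains was over 3 log2 units, the LE/orl mean was near background and the fitted difference was −4.97 ± 0.32 (SE; adjusted p = 2.5e-12). Cdc20, which triggers exit from mitosis, read 9.69, 10.09, 9.67 and 9.45 in LE/wt and 8.28, 8.49, 8.29 and 7.96 in LE/orl, a difference of −1.47 ± 0.19 (SE; adjusted p = 4.4e-07). Pttg1 (securin, which blocks early separation of sister chromatids) differed by −1.73, without overlap. Cytoskeleton and adhesion genes went both ways, with 8 of 27 higher (29.6%) and 10 lower (37%). Vim (vimentin) was at 13.95, 13.49, 13.50 and 13.46 in LE/wt and 12.37, 12.81, 12.58 and 12.18 in LE/orl, a difference of −1.11 ± 0.14 (SE; adjusted p = 4.6e-07), with replicate D the lowest. Cfl1 (cofilin, which severs actin filaments) differed by −1.99. The adhesion gene Cdh2 (N-cadherin) was higher, at 7.26, 7.11, 7.62 and 7.89 against 5.46, 5.40, 6.30 and 4.98, a difference of 1.93 ± 0.27 (SE; adjusted p = 1.3e-06).

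Of 20 chaperone and unfolded protein genes 5 were higher (25%) and 6 lower (30%), beside 32.6% and 43.4% of named genes. The list median was −0.28 over all arrays but 0.34 in replicate D. Atf4, a transcription factor of the stress response, was at 10.74, 10.21, 10.55 and 10.54 in LE/wt and 9.04, 9.12, 8.55 and 9.75 in LE/orl, a difference of −1.40 ± 0.23 (SE; adjusted p = 1.4e-05). It was not called in replicate D alone (−0.76, adjusted p = 0.08) or with the index as a covariate (−0.37, adjusted p = 0.13). Cct2, of the chaperonin that folds actin and tubulin, differed by −1.15, and Hspb2, a small heat shock protein of muscle, by −2.95 with LE/orl near background. Lipid genes split into 7 higher (33.3%) and 8 lower (38.1%) of 21. Acsl3, which activates fatty acids, was at 8.11, 8.09, 8.50 and 8.57 in LE/wt and 9.27, 9.30, 9.25 and 9.23 in LE/orl, a difference of 0.94 ± 0.14 (SE; adjusted p = 3.5e-06). Fdps, of the isoprenoid pathway to cholesterol, had a difference of −1.55, without overlap. Of 9 solute carriers 3 were higher (33.3%) and 1 lower (11.1%): Slc20a1 (phosphate uptake) differed by 0.98 and Slc29a1 (nucleoside transport) by −0.94.

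Markers of other cells were few among the named genes. Both endothelial genes were lower: Cdh5 (vascular cadherin) was at 6.91, 7.74, 5.99 and 5.72 in LE/wt and 5.49, 5.11, 5.64 and 3.88 in LE/orl, a difference of −1.56 ± 0.38 (SE; adjusted p = 0.0012), and Emcn (endomucin) differed by −1.03 with overlap. With the index as a covariate Emcn was not called (−0.49, adjusted p = 0.33). At GD20, without that covariate, the strain difference of Cdh5 had the opposite sign (1.02, limma, adjusted p = 0.03). The lymphatic marker Lyve1, also found on some macrophages, was higher, at 9.33, 9.94, 9.39 and 9.24 against 6.78, 7.69, 7.08 and 6.97, a difference of 2.34 ± 0.36 (SE; adjusted p = 6.1e-06). The macrophage gene C1qc (complement) fell from 7.06, 7.40, 8.14 and 7.88 to 2.44, 3.12, 4.56 and 5.61, near background in all LE/orl arrays but replicate D. Its difference was −3.69 ± 0.65 (SE; adjusted p = 3.5e-05), and −2.01 in replicate D alone (adjusted p = 0.11). For nerve, Uchl1 (a ubiquitin hydrolase of neurons) was at 9.35, 9.46, 8.45 and 8.86 in LE/wt and 5.44, 5.45, 4.80 and 6.60 in LE/orl, a difference of −3.46 ± 0.44 (SE; adjusted p = 4.2e-07), and Ngfr (the low-affinity neurotrophin receptor) was not called (−0.22, adjusted p = 0.38). With the index as a covariate both nerve genes were called lower. The red cell genes spread widely within a strain: Hbe1 (embryonic globin) was at 11.38, 12.45, 12.51 and 13.98 in LE/wt and 9.99, 9.35, 8.94 and 13.33 in LE/orl, and Car1 (carbonic anhydrase) at 3.53, 6.22, 10.70 and 8.47 in LE/wt and 4.50, 3.10, 6.61 and 8.43 in LE/orl. The groups of both overlapped, and Car1 was not called (−1.57, adjusted p = 0.29). Hbe1 was called (−2.18, adjusted p = 0.032), but not without LE/wt replicate C or D or without any one of LE/orl replicates A to C, with values between −2.20 and −1.69. Lpl (lipoprotein lipase, on the adipose list) was 0.48 (adjusted p = 0.03) and was not called without LE/orl replicate B or D or LE/wt replicate A or B, with values between 0.38 and 0.47. Of the fibroblast genes, Dcn (decorin) was −0.52 with overlap and was not called without replicate D (−0.36) or without LE/wt replicate A (−0.42), and Pdgfra (0.12, adjusted p = 0.56) and the brightest probe set of Col1a1 were not called. Col1a2 was higher, as given above. No cartilage marker was both named and above the minimum signal. The part of a change in cell makeup in the results above was not tested.

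Replicate D ran against its own group for a set of genes. Of 2210 named genes called without replicate D, it lay on the other side of the LE/wt mean for 256. For 146 of the 2210, 68 of them higher in replicates A to C and 78 lower, replicate D lay beyond the LE/wt range on the opposite side. They were found by that rule, so their values are a description with no test. Fkbp2, a prolyl isomerase of the endoplasmic reticulum, was at 5.09, 4.91 and 7.46 in replicates A to C, at 9.68, 8.89, 9.43 and 9.30 in LE/wt and at 10.96 in replicate D. Mrpl50, of the mitochondrial ribosome, was at 4.94, 4.51 and 6.25 in replicates A to C, at 7.51, 9.25, 7.36 and 8.00 in LE/wt and at 9.44 in replicate D. Hddc3 and Tceal8 had the same pattern, with replicate D at 7.33 and 8.40, above LE/wt means of 6.90 and 7.59. In the other direction, Rdx (radixin, which links actin to the membrane) was at 12.02, 11.97 and 11.39 in replicates A to C, at 8.14, 8.07, 8.52 and 8.56 in LE/wt and at 6.65 in replicate D. Nek1, a kinase of cilia and DNA repair, was at 10.54, 10.00 and 9.43 in replicates A to C, at 6.21, 5.90, 5.33 and 5.55 in LE/wt and at 4.17 in replicate D. Nup155 (nuclear pore) and Pmf31 were at 4.93 and 4.24 in replicate D, against means of 9.04 and 10.34 in replicates A to C. In LE/wt females of GD18 Rdx was at 5.40 and Nek1 at 3.94, below the LE/wt males of GD19 as replicate D was.

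The strain difference of GD19 was compared with that of the day before and of the day after. Against GD18, 0 of 8711 features (0.0%) had a different strain difference at an adjusted p under 0.05 in limma, and 184 had an unadjusted p under 0.05. The count was also 0 without the pair of LE/orl arrays that lay on the LE/wt side. The named genes with the lowest p were Ddit4l, RGD1566084, Kcns3 and Akap7. Akap7, which anchors protein kinase A, had a strain difference of 0.27 at GD18 and 1.34 at GD19 (change 1.07, adjusted p = 1). Kcns3, a potassium channel subunit, had −0.82 and 0.23 (adjusted p of the change = 1). Ddit4l, an inhibitor of mTOR signalling, had −0.02 and −0.82, close to background, and RGD1566084 had −1.33 and −0.28.

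At GD18 the strains differed in 4428 features (50.8%), at GD20 in 4046 (46.4%), and against LE/wt of all 3 days the LE/orl arrays of GD19 differed in 4663 (53.5%). Under the index covariate the counts were 2635 (30.2%) at GD18 and 44 (0.505%) at GD20, where the index lay between −6.61 and −6.08 in LE/orl and between −3.79 and −3.54 in LE/wt. The strain differences at GD20 given below are without that covariate. Against GD20, 2334 features (26.8%), and 40.4% of named genes, had a different strain difference, 957 more positive and 1377 more negative at GD20. Within LE/wt, 3444 features (39.5%) changed from GD19 to GD20, and within LE/orl 7 (0.0804%). From GD18 to GD19 the numbers were 21 (0.241%) in LE/wt and 9 (0.103%) in LE/orl. Nus1 stood at 5.97 ± 0.39 in LE/wt at GD18 (mean ± SD, n = 4 here and below), 6.51 ± 0.54 at GD19 and 9.73 ± 0.18 at GD20. In LE/orl it stood at 9.89 ± 0.14, 9.85 ± 0.24 and 9.76 ± 0.27, and in LE/wt females of GD18 at 9.75 ± 0.18. Its strain difference therefore went from 3.34 at GD19 to 0.03 at GD20 (change −3.30, adjusted p = 2.2e-08), with the move in LE/wt. Trim33, a regulator of Smad signalling, had the same course: 7.97 in LE/wt at GD19, 9.68 at GD20 and 9.99 in females, with LE/orl at 9.92 and 9.65 on those days. Bmyc, a rodent gene of the Myc family, ran the other way, at 7.57, 8.09, 6.68 and 7.24 in LE/wt at GD19 and near background in LE/orl (4.08, 4.04, 4.05 and 4.17), in LE/wt at GD20 (4.02) and in females (3.98). Mrpl52, of the mitochondrial ribosome, was at 7.19 in LE/wt at GD19 and between 5.31 and 5.44 in the means of LE/orl at both days, LE/wt at GD20 and females.

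Of the genes with the largest GD19 differences, Kctd3, Rnf111, Glcci1, Rfk, Dnm1 and Map3k7 also had a smaller strain difference at GD20, and so did Polr2f, Eif3k and Mif. Kctd3 went from 3.36 to 0.90 (adjusted p of the change = 0.00012), with LE/wt at 8.38 at GD20 and 9.45 in females. For Eef2k (3.19 at GD20), Ptprf (2.73), Lgals1 (−2.84) and Homer1 (−3.16) a change with day was not called. Sln narrowed from −2.76 to −0.98 (adjusted p of the change = 0.016) as the LE/orl mean moved from 7.71 to 8.67 and the LE/wt mean from 10.47 to 9.65. Cdc20 went from −1.47 to 0.05 (adjusted p of the change = 0.00019), with the move in LE/wt, while Tk1 was at −4.38 at GD20, without a called change.

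**Figure D4:**
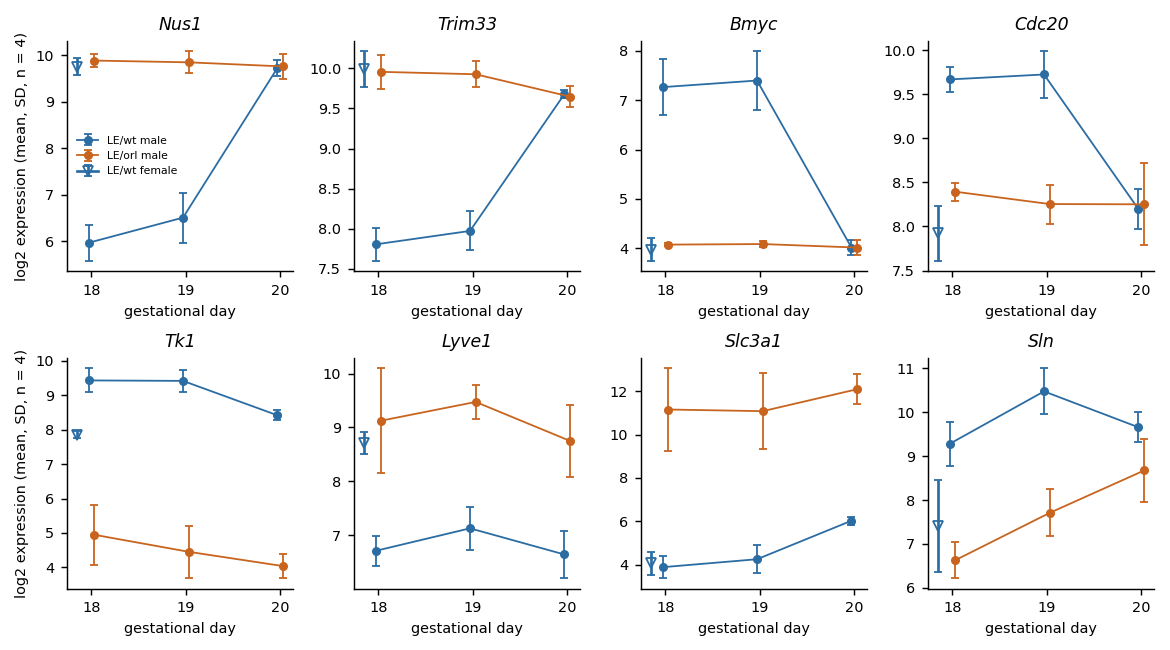
Mean log2 expression with SD (n = 4) of 8 genes in LE/wt and LE/orl left male gubernacula at GD18, GD19 and GD20, with LE/wt females of GD18 as open triangles. Nus1, Trim33, Bmyc and Cdc20 differ between strains at GD18 and GD19 and meet at GD20 with the female level near LE/orl, while Tk1, Lyve1 and Slc3a1 stay apart on all 3 days and Sln narrows.

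Because LE/wt moved between days, the LE/orl fetuses of GD19 were also set against all 12 LE/wt left male arrays of GD18 to GD20. This comparator was chosen after the values were seen. All 4 LE/orl arrays lay beyond all 12 for 1278 features (14.7%) and 716 named genes (25.4%), 233 above (8.26%) and 483 below (17.1%). By list, the genes below all 12 numbered 31 of 54 ribosomal protein genes, 17 of 42 oxidative phosphorylation genes, 10 of 24 proteasome genes, 4 of 5 smooth muscle genes and 4 of 5 selenoproteins. In striated muscle they were 3 of 10 energy enzymes, 2 of 8 calcium handling genes, 2 of 11 Z-disc genes and 0 of 12 thin and 0 of 6 thick filament genes. Lyve1 was above 7.69, the highest of the 12, in every LE/orl array, and its replicate D lay with the others. Map3k12, a kinase of stress signalling in neurons, was at 6.65, 6.73, 7.26 and 6.86 in LE/wt and 10.20, 10.10, 10.51 and 7.54 in LE/orl, with a highest LE/wt value of 7.41 over the 3 days. Replicate D was only just above it, and in it alone the difference from LE/wt of GD19 was 0.66 (adjusted p = 0.52). Epha4, an ephrin receptor that guides cells and axons, was at 8.39, 8.11, 7.21 and 8.18 in LE/wt and 10.52, 10.71, 10.89 and 9.87 in LE/orl, with a difference of 2.52 ± 0.39 (SE; adjusted p = 6e-06) against GD19 and 2.45 against the 3 days.

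In testis of the same day the strains differed in 1050 of 7878 features (13.3%), 415 higher and 635 lower (n = 5 per strain). The control index lay between −1.53 and −1.07 in the GD19 testis arrays of both strains, which were labelled by another protocol, so only differences are set side by side. Of 2542 named genes tested in both organs, 298 were called in both, 15.2% of the gubernaculum calls and 75.3% of the testis calls. These shares lie near those of all 2542 genes, of which 15.6% were called in testis and 77.0% in gubernaculum. Each organ is read by its own brightest probe set, which can differ. Of the 298 genes, 52 were higher in both, 163 lower in both and 83 opposite. Slc3a1, the heavy chain of a transporter for cystine and basic amino acids, had the largest gubernaculum difference among genes called the same way in both. It read 4.79, 3.45, 4.05 and 4.73 in LE/wt gubernaculum, near background, and 11.73, 12.26, 11.87 and 8.46 in LE/orl. Replicate D lay below the other LE/orl arrays but more than 3 log2 units above LE/wt, and the fitted difference was 6.83 ± 0.71 (SE; adjusted p = 1.3e-08). In testis it was 2.13 (adjusted p = 1.1e-09). Zp2, an egg coat gene, was at 2.57, 2.67, 2.54 and 2.67 in LE/wt gubernaculum, near background, and 5.08, 5.25, 3.79 and 5.50 in LE/orl, with a testis difference of 3.34. Rbfox3, a splicing factor of neurons, had 2.13 in gubernaculum (1.38 in replicate D alone, adjusted p = 0.063) and 1.30 in testis.

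Lower in both organs were Nit1 (an amidase), Ephx2 (soluble epoxide hydrolase), Rnf34 (a ubiquitin ligase) and Nqo2 (a quinone reductase). Nit1 was at 7.96, 7.29, 8.37 and 7.21 in LE/wt gubernaculum and 5.96, 6.01, 4.54 and 5.30 in LE/orl, a difference of −2.26 ± 0.34 (SE; adjusted p = 4.8e-06) beside −1.32 in testis. Rnf34 was at 7.92, 7.89, 7.20 and 7.78 in LE/wt and 6.79, 6.10, 6.49 and 6.49 in LE/orl, differences of −1.23 and −1.15. Ephx2, with means below 5 and so near background in both strains and both organs, had −2.22 and −1.45, and Nqo2 −1.07 and −1.24. For these 4 genes and Zp2, replicate D lay within the range of replicates A to C or beyond it on the side away from LE/wt. Epha4 (1.30, adjusted p = 4.1e-06) and Tk1 (−1.02, adjusted p = 7.1e-07) also differed in testis in the direction they had in gubernaculum. Lage3 (−0.16, adjusted p = 0.19) and Rps15 (−0.02, 0.85) were not called there. Of 54 ribosomal protein genes 1 was higher and 1 lower in testis, of 41 oxidative phosphorylation genes 0 and 7, and of 24 proteasome genes 1 and 3, beside 5.34% of named genes higher and 10.9% lower.

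**Figure D5:**
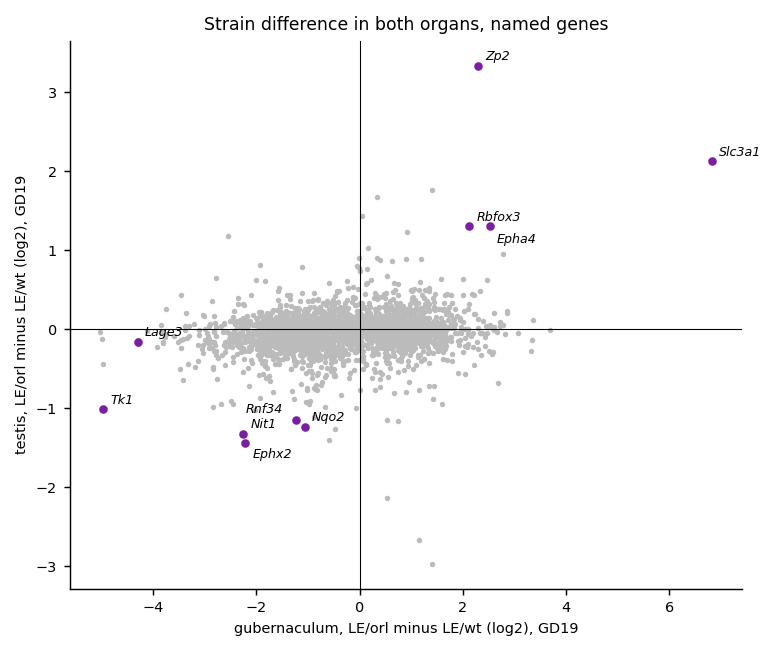
Each point is 1 of 2542 named genes, with the LE/orl minus LE/wt log2 difference at GD19 in gubernaculum on the horizontal axis and in testis on the vertical axis. The range is wider in gubernaculum, and Slc3a1, Zp2, Rbfox3 and Epha4 are higher and Nit1, Ephx2, Rnf34, Nqo2 and Tk1 lower in both organs.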

How the data were processed

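RNA of single gubernacula was amplified in 2 cycles and that of testes in 1, per the labels' protocols, and hybridised to one-colour rat arrays with 15923 probe sets. The deposited values are log2 values, which the submitters' processing notes credit to GCRMA, and they were used without further normalization. Such arrays have no count depth, and the number of arrays (4 per group, 5 in testis) limits the precision. The authors' deposited lists gave gene symbols and group means of linear intensity, which were used only for names and to check which arrays entered a mean (within 0.51). Of 3922 listed probe sets 3008 had 1 symbol, 165 several and 749 none. Of the symbols 2064 were current in RefSeq on GRCr8, 707 were updated and 237 kept as given, for 2844 genes in all.

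Probe sets with a log2 value of at least 5 in 3 gubernaculum arrays (5 testis arrays) were kept, without 57 control probe sets. A named gene was read by its brightest probe set, and each unnamed probe set was kept as a feature. limma (version 3.58.1, R 4.3.3) fitted 9 groups over all 34 gubernaculum arrays, and the 20 testis arrays apart, with Benjamini-Hochberg adjustment within each contrast and a threshold of 0.05. Python 3.11.15, numpy 2.4.6, pandas 2.3.3 and matplotlib 3.10.9 were used for the rest. The fit was tested on simulated data.

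The genes named are the 10 highest and 10 lowest without overlap and with both means of at least 5, the 3 members of each gene list with the lowest p, the 4 higher and 4 lower genes that LE/orl replicate D opposes most, the 4 with the lowest p for each change between days, and the 4 highest and 4 lowest called alike in both organs. A few genes that met this rule are not reported here. The members, lists and tests were chosen with earlier results of these data known. A gene can stand in several lists, so the counts of lists are not separate from each other. Of named genes with several probe sets tested, 146 in all, 76 had at least 2 called, and 8 of these had calls in opposite directions. Alternatives left out single arrays, changed the filter, the normalization, the probe set rule and the model, or added the control index. The comparisons of replicate D alone and with LE/wt of 3 days were chosen after seeing the data.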

Additional observations from a re-analysis of the deposited data

Results flagged for a closer look

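Single arrays far from the other 3 of their strain were looked for in each named gene, since chance alone marks about 1 in 20 groups. Of 266 groups 18 held such an array, 13 times LE/orl replicate D and 5 times a LE/wt array. Replicate D stood above the other LE/orl arrays for Gsk3b (8.59), Homer1 (7.70), Hspb2 (4.73), Lage3 (8.06), Selenow (3.73), Tagln (10.61) and Timm13 (9.45), and for RGD1566084 (6.06). It stood below them for Fabp3 (3.82), Map3k12 (7.54), Pbx3 (10.32), Rdx (6.65) and Slc3a1 (8.46). In LE/wt, replicate C was high for Kctd3 (6.92). Replicate A was high for Selenow (8.92) and Vim (13.95), and the values of Hddc3 in replicate B (7.29) and RGD1566084 in replicate D (6.09) also stood apart.

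For 47 of the 133 genes named by rule in the text, the strain difference, LE/orl minus LE/wt, changed between GD19 and GD20 (limma interaction, adjusted p under 0.05), beside 40.4% of all genes tested that have a name. Values are the change in log2 difference at GD20. A positive GD19 difference became smaller or turned for Nus1 (−3.30), Rnf111 (−3.21), Kctd3 (−2.46), Glcci1 (−2.37), Map3k7 (−2.19), Trim33 (−1.98), Dnm1 (−1.91), Sfrp2 (−1.74), Rfk (−1.73), Acsl3 (−1.48), Cdh2 (−1.22), Spry1 (−1.19), Notch2 (−0.93) and Lpl (−0.81). A negative GD19 difference became smaller or turned for Bmyc (3.31), Cdh5 (2.58), C1qc (2.48), Mif (2.14), Eif3k (2.11), Mdh2 (2.03), Rpl29 (1.93), Timp1 (1.85), Myl9 (1.83), Mrpl52 (1.78), Ndufs7 (1.78) and Sln (1.78). Smaller changes of the same kind were those of Cox6a2 (1.72), Psmb3 (1.66), Polr2f (1.62), Egfr (1.61), Cdc20 (1.52), Fabp3 (1.49), Emcn (1.35), Mustn1 (1.31), Acta2 (1.26), Pttg1 (1.21), Atp5po (1.19) and Bmp7 (1.11). The smallest were those of Rpl35a (1.09), Idh3g (1.07), Dusp1 (1.06), S100a1 (1.02), Timp2 (0.88), Fdps (0.86), Slc29a1 (0.86) and Vim (0.79). Ddit4l had a more negative difference at GD20 (−1.31). Among the genes that turned, Acsl3 (−0.53, adjusted p = 0.0029) and Cdh5 (1.02, adjusted p = 0.03) were called with the opposite sign in the limma strain difference of GD20.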

How the results depend on the processing

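The GD19 count of 4534 features lay between 3995 and 4699 when single arrays were left out, rose to 5093 with array weights and fell to 3360 with only the 8 arrays of GD19. It was 2783 with the control index added as covariate, 2794 in replicate D alone and 2348 with a difference of at least 1 on the log2 scale as well. Samples with the same replicate letter did not deviate together (correlations of 0.14, 0.13, 0.07 and −0.0002), and with the letters as a replicate block on the 8 arrays the count was 2936. In testis the replicate block on 10 arrays gave 539 in place of 1050, the 10 arrays without a block 708, and leaving out single arrays 810 to 1053. Without replicate D and its like at GD18, LE/orl replicate A, the GD19 count was 4932. When single arrays were left out, the strain difference changed between GD19 and GD20 in 1987 to 2483 features and between GD18 and GD19 in 0 to 1. With array weights the former was 3055, with the index as covariate 2684 and without a minimum signal 2541, where the latter was 2. Of 133 genes named, the call or its absence and the sign stayed for 125 to 130 when single arrays were left out, and none turned. With the index as a covariate 20 lost the call, 1 gained it and these turned sign: Fkbp2 1.76, Gli2 −0.12, Hbe1 0.59, Hddc3 0.17, Mrpl50 1.58, Myl1 −0.12, Nek1 −1.07, Nup155 −0.70, Pdgfra −0.25, Pmf31 −1.38, Rdx −1.76, Tagln 0.37, Tceal8 0.59 and Tnnt3 0.21. In replicate D alone 28 lost it and these turned: Car1 1.20, Fkbp2 1.64, Hbe1 0.75, Hddc3 0.43, Kcns3 −0.10, Mrpl50 1.41, Myh3 −0.0034, Myl1 −0.012, Nek1 −1.58, Nup155 −0.61, Pdgfra −0.35, Pmf31 −1.76, RGD1566084 0.50, Rdx −1.67 and Tceal8 0.80. Against LE/wt of 3 days Kcns3 −0.13 and Pdgfra −0.039 turned. The cause of these changes was not tested. Without replicate D, Acta1, Dcn and Lpl lost the call, and Mrpl50 and RGD1566084 gained it. Calls of genes with a strain mean under 5, 166 of the named genes, rest on signal close to background in that strain.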
